A study of Mus musculus with 9 samples.

Results

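Ntrk2, Ntrk3 and Bdnf are 3 of the 18634 genes in a single-cell RNA-sequencing table of the mouse brain. They were chosen by name, as the receptor genes for the neurotrophins BDNF and neurotrophin-3 and the gene for BDNF itself, and all 3 were found in the table. Their counts were read in each of the 9 libraries and in each cell type that the study lists for the library it could be matched to. The libraries came from brainstem, cortex and hypothalamus of male wild-type C57BL/6 J mice of 9 to 11 weeks, each from the pooled tissue of 3 mice, and tissue of every group was taken at ZT12, the end of the light phase. Mice of the NS group slept freely, mice of the SD group were kept awake for 12 h by a moving bar from lights on, and mice of the RS group were kept awake in the same way and then left to recover. The tissue was digested with papain and passed over beads that take up myelin. The labels give the recovery of the RS group as 24 h in one place and as 12 h in another. The methods of the study give 24 h, from ZT12 to ZT12.

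Of the 9 libraries, only library 7 could be tied to a region and a group. All 1999 listed barcodes of brainstem, NS occur in it, while the other libraries hold from 5 to 13 of them. Libraries are numbered in the order in which their codes appear in the table, and the other 8 stay without a region or sleep group, so no comparison between sleep groups was made. Every group is 1 library, there are no replicates, and no test was run. Intervals in brackets are exact 95% intervals, Poisson for levels and Clopper-Pearson for shares of cells, and they cover counting error only. Levels are UMIs, that is counted RNA molecules, of a gene per 1000000 UMIs of the same cells (CPM).

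A neurotrophin binds a Trk receptor at the cell surface, the receptor pairs with a second copy of itself, and its kinase domain then starts the Ras, PI3-kinase and phospholipase C pathways. Ntrk2 encodes TrkB, the receptor for BDNF and neurotrophin-4, and Ntrk3 encodes TrkC, the receptor for neurotrophin-3. Bdnf encodes a secreted growth factor of neurons that is released in response to their activity and adjusts synapses. TrkB also exists in truncated forms that keep the part outside the cell and lack the kinase, and astrocytes are known to carry chiefly such a form.

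The table has 1 row per gene, so that the forms of a receptor are added together, and their coding sequences show what is pooled. On GRCm38 with the GENCODE M21 annotation, Ntrk2 lies at chr13:58806569-59133970 on the plus strand, Ntrk3 at chr7:78175959-78738012 on the minus strand and Bdnf at chr2:109674700-109727007 on the plus strand. Ntrk2 has 7 transcripts with a complete coding sequence, of which 2 code for 2466 bases and 5 for 1401 to 1479 bases. The full-length Ntrk2-201 and the shorter Ntrk2-202 share their first 1394 coding bases, after which Ntrk2-202 runs for only 37 more bases to its stop codon. Ntrk3-201 and the shorter Ntrk3-202 share their first 1585 coding bases. The last 30 shared bases are shown here in lower case and the first 37 bases that belong to each transcript in capitals, read from the GENCODE M21 transcripts 5′ to 3′.
Ntrk2-201: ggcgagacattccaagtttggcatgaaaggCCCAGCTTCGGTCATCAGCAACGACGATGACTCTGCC
Ntrk2-202: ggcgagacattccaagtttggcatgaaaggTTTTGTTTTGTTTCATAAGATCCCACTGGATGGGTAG
Ntrk3-201: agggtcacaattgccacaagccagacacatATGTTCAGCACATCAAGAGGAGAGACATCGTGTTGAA
Ntrk3-202: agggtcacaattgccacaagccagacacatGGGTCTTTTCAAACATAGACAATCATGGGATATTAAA

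The capitals of Ntrk2-201 lie at chr13:58985803-58985839 and those of Ntrk2-202 at chr13:58932024-58932060, both in coding exons. Those of Ntrk3-201 lie at chr7:78260378-78260414 and those of Ntrk3-202 at chr7:78304390-78304426. The 3′ ends of Ntrk2-201 and Ntrk2-202 are 196943 bp apart and those of Ntrk3-201 and Ntrk3-202 are 124731 bp apart. The 3′-end assay would read these ends at different places, but the deposited count per gene does not keep the place. No value below therefore separates the kinase receptor from the truncated form. The 11 Bdnf transcripts of the annotation differ in their first exons and all end at the same base, so their counts are pooled too. Antisense genes overlap Ntrk2 and Bdnf in this annotation, and whether the counting used the strand is not given in the sources used here.

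**Figure D1:**
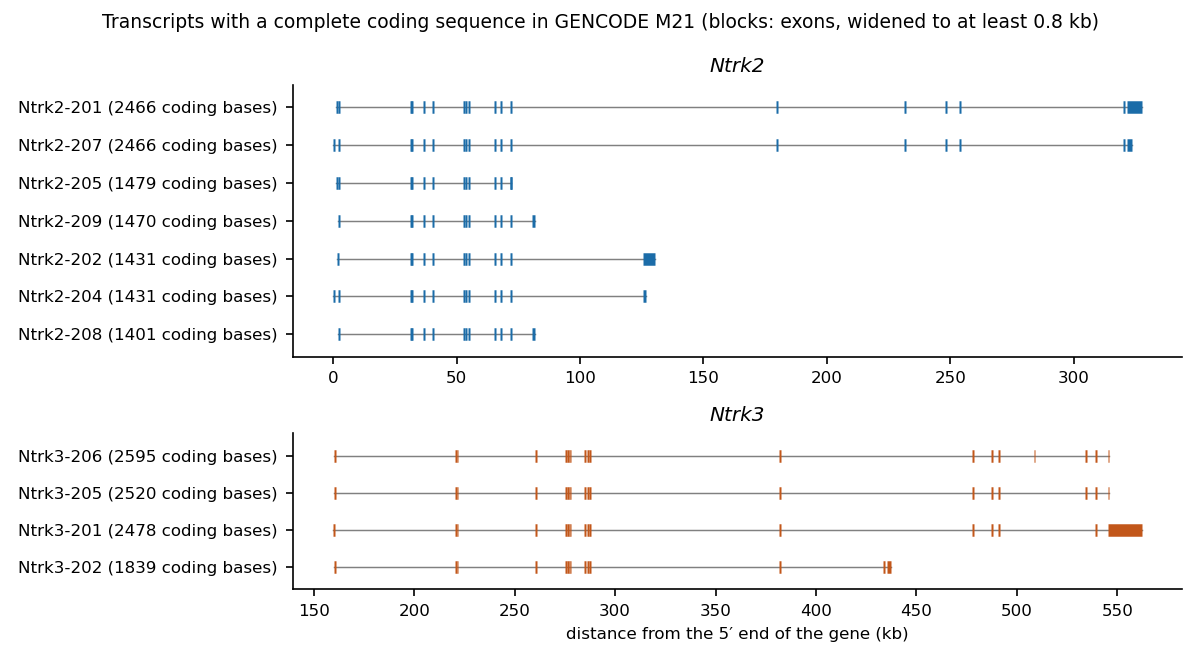
Transcripts of Ntrk2 and Ntrk3 with a complete coding sequence, by distance from the 5′ end of the gene in kb, with exons as blocks (widened to be visible) and introns as lines. The 5 shorter Ntrk2 transcripts and Ntrk3-202 end well before the full-length ones.

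The libraries were shallow, with 2575 to 3916 cells each and a median of 402 to 1055 UMIs per cell. Libraries 4, 5 and 6 stand apart because Gh, the growth hormone gene of the pituitary, takes 25.3% to 32.1% of their UMIs and at most 0.00755% elsewhere. Levels are therefore given also against totals without mitochondrial, hemoglobin and pituitary hormone genes. Barcodes found in more than 1 library number 549 of 29015, with 5 to 25 shared by any pair of libraries.

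Ntrk2 was found in every library, and its whole-library level differed less among libraries than that of the other genes. Its 7338 UMIs lay in 4900 of the 29571 cells. The level was 344 CPM in library 1, 386 CPM in library 2, 318 CPM in library 3, 188 CPM in library 4, 278 CPM in library 5, 136 CPM in library 6, 130 CPM in library 7, 295 CPM in library 8 and 251 CPM in library 9. The highest library was 2.96 times as high as the lowest. In the order of the levels, libraries 7 and 6 overlap in their intervals, library 4 [175 to 202] lies apart from both its neighbours, and libraries 9, 5, 8, 3, 1 and 2 each overlap with the next. This order changed in cells of at least 1000 UMIs, where libraries 4 and 5 had 141 and 143 CPM. The cause of this change was not tested. Without the hormone, hemoglobin and mitochondrial genes in the total, library 5 was highest with 428 CPM and library 7 was lowest with 154 CPM.

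Ntrk3 separated the libraries more clearly. It was at 124, 137 and 143 CPM in libraries 1, 2 and 3, at 26.5, 43.4 and 16.8 CPM in libraries 4, 5 and 6, and at 20.02, 31.1 and 19.9 CPM in libraries 7, 8 and 9. The first 3 libraries did not overlap with the other 6, also when the total left out the hormone and the other genes (at most 66.8 CPM in library 5). The highest level was 8.51 times the lowest, and the 3 highest libraries overlap among themselves, as each of the lower 6 does with the next. In cells of at least 1000 UMIs, library 1 was highest with 230 CPM and library 6 lowest with 15.7 CPM. As the mean over cells, library 3 was highest with 100 CPM and library 6 lowest with 18.9 CPM.

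Bdnf in summed UMIs was highest in libraries 1 to 3 and lowest in libraries 7 to 9. Libraries 1, 2 and 3 had 41.4, 73.4 and 53.1 CPM from 63, 142 and 195 UMIs, and library 2 [61.8 to 86.5] lay just above library 3 [45.9 to 61.1]. Libraries 4, 5 and 6 had 11.6, 23.1 and 11.1 CPM from 46, 49 and 61 UMIs, and library 5 [17.1 to 30.5] was above the other two. Libraries 7, 8 and 9 had 2.92, 4.94 and 2.46 CPM from 13, 17 and 12 UMIs, and these 3 intervals overlap each other. The highest library had 29.8 times the level of the lowest. This span moved with the processing. In cells of at least 1000 UMIs, library 2 was highest with 138 CPM and library 7 lowest with 1.68 CPM. As the mean over cells, library 2 was highest with 42.3 CPM and library 9 lowest with 1.94 CPM. The gap between libraries 1 and 5 depended on the scale: it was 45.2 against 35.6 CPM with the total without hormone and the other genes, and as the mean over cells library 1, with 21.2 CPM, was below library 5, with 25.8 CPM. In whole-library levels like these, fewer cells of a type and less RNA per cell cannot be told apart, and the makeup of the libraries moved with the levels. Neuron-like cells, defined below, made up 23.3% to 38.6% of libraries 1 to 3, 4.42% to 15.6% of libraries 4 to 6 and 2.75% to 3.92% of libraries 7 to 9. The part of this makeup in the differences was not tested as such, but levels within 1 cluster are given further on.

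**Figure D2:**
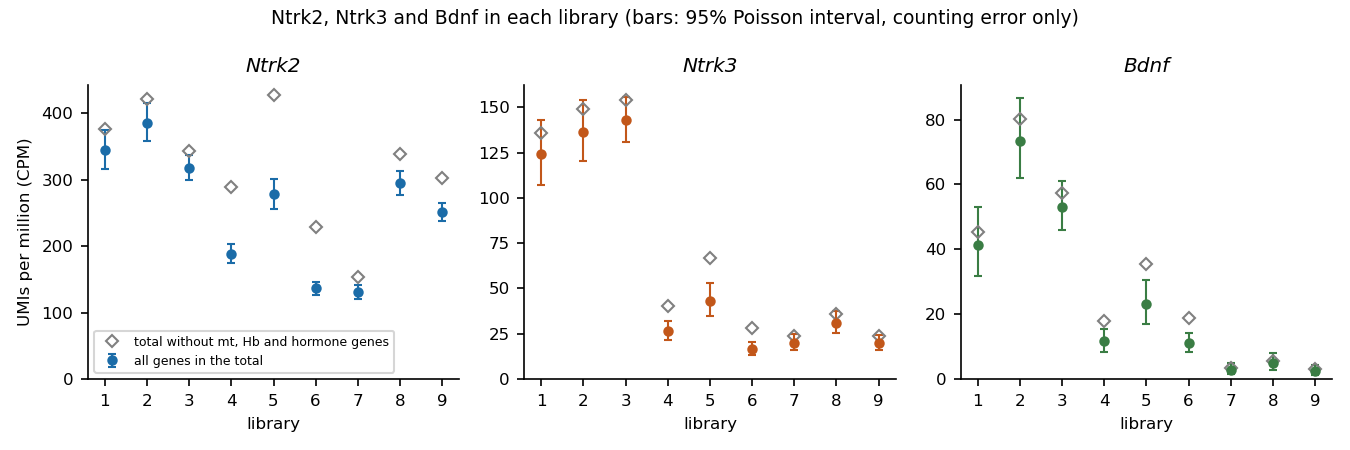
Level of each gene in CPM (vertical axis) in libraries 1 to 9, with 95% Poisson intervals, and the same level against a total without mitochondrial, hemoglobin and pituitary hormone genes (open diamonds). Ntrk3 and Bdnf are highest in libraries 1 to 3, while Ntrk2 lies between 130 and 386 CPM (filled points) throughout.

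The listed cell types of library 7 come from the study, and the part of the list held here covers 1999 of the 3731 cells of that library in 12 types. Their markers fit the names for the types the results turn on, with all 8 astrocyte markers, all 6 ependymal markers, all 12 neuron markers and all 6 microglia markers higher in their own type than in the other listed cells. The 43 listed oligodendrocytes had UMIs of only 3 of the 6 oligodendrocyte markers, so values in that type carry little weight.

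In brainstem, NS, Ntrk2 was highest in astrocytes. The 188 astrocytes held 176 of the 298 Ntrk2 UMIs of the listed cells, 59.1% from 9.40% of the cells, at 1035 CPM [888 to 1200]. The 88 ependymocytes (EPC), the ciliated cells that line the ventricles, had 67 UMIs and 393 CPM [305 to 499]. The 55 glutamatergic neurons had 19 UMIs and 362 CPM [218 to 566], and the 18 other neurons had 7 UMIs and 238 CPM [95.6 to 490]. EPC and both kinds of neurons overlap in their intervals, whereas astrocytes lie above them all.

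The remaining types were low. Macrophages had 36.1 CPM from 3 UMIs, pericytes 33.8 CPM from 5, oligodendrocytes 23.1 CPM from 2, smooth muscle cells of arteries (VSMCA) 19.5 CPM from 6, endothelial cells 12.3 CPM from 8 and microglia 9.86 CPM from 5. Hemoglobin-expressing vascular cells (HbVC) had 0 UMIs in 19 cells, which allows up to 68.2 CPM at 3 counts, and 1 cell listed as unknown had 0 as well. The 6 types from macrophages to microglia do not separate beyond counting error from their neighbours in this order.

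The share of cells with a UMI was also highest in astrocytes. A UMI of Ntrk2 was found in 102 of 188 astrocytes, 54.3% [46.8 to 61.5], at a median of 771 UMIs per cell, and in 5 of 549 microglia, 0.911% [0.296 to 2.11], at a median of 796. Microglia are taken here as the level that free RNA in the droplets could give. The alternative with free RNA subtracted used the level in HbVC instead. With every cell thinned to 500 UMIs, 35.7% of 185 astrocytes, 15.9% of 88 EPC and 0.369% of 542 microglia kept a UMI of Ntrk2. Lower types were not in the order of their CPM, as oligodendrocytes, with 4.76%, stood above macrophages, with 3.03%, and pericytes, with 2.44%, and no order is read from these. EPC were the deeper cells, with a median of 1752 UMIs, and 38 of 88 had a UMI before thinning. Of the 188 astrocytes, 53 had 1 UMI, 29 had 2 and 20 had 3 or more.

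Against the other listed cells, Ntrk2 in astrocytes was 15.2 times as high, with 10 CPM added to both levels. Of the 3845 genes with at least 50 CPM on either side, 10.2% were at least 4 times as high in astrocytes, and 53 genes, Ntrk2 included, had a ratio as large as that of Ntrk2 or larger. In EPC the ratio of Ntrk2 was 3.33, under the 4-fold line that 13.4% of 4073 genes passed. In the 73 neurons of both kinds it was 2.42, where 19.5% of 4278 genes passed.

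Ntrk3 was sparse in the listed cells, with 34 UMIs in all. Astrocytes had 12 UMIs, each in a different cell, and 70.6 CPM [36.5 to 123], the other neurons had 4 UMIs and 136 CPM [37.01 to 348], and glutamatergic neurons had 3 UMIs and 57.2 CPM [11.8 to 167]. These 3 intervals overlap. Pericytes followed with 4 UMIs and 27.0 CPM, oligodendrocytes with 2 and 23.1 CPM and VSMCA with 6 and 19.5 CPM. Microglia had 2 UMIs and 3.94 CPM, and endothelial cells had 1 UMI and 1.54 CPM. Macrophages, HbVC and the unknown cell had 0. EPC had 0 Ntrk3 UMIs in 170400 UMIs, which allows up to 17.6 CPM, beside 67 UMIs of Ntrk2 in the same cells. Ntrk3 was 3.92 times as high in astrocytes as in the other listed cells, and 4.25 times as high in neurons of both kinds. The neuron value rests on 7 UMIs and was 32.8 CPM in place of 85.5 CPM without the 5% of cells with the highest Scrublet scores, a measure of likeness to 2 cells in 1 droplet.

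Bdnf had 8 UMIs in the listed cells, and 7 of them lay in neurons. Glutamatergic neurons had 5 UMIs in 5 cells and 95.3 CPM [31.0 to 222], the other neurons had 2 UMIs in 1 cell and 67.9 CPM [8.22 to 245], and astrocytes had 1 UMI and 5.88 CPM [0.149 to 32.8]. The other 9 types had none. A UMI was found in 6 of 73 neurons, or 8.22%. In microglia, 0 of 549 cells allows a share of cells with a UMI of up to 0.546%, which is no limit on cells expressing the gene. The ratio of neurons to the other listed cells was 9.13 with 10 CPM added and 59.2 with 1 CPM added, and in cells of at least 1000 UMIs the neurons of both kinds had 40.9 CPM in place of 85.5 CPM.

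**Figure D3:**
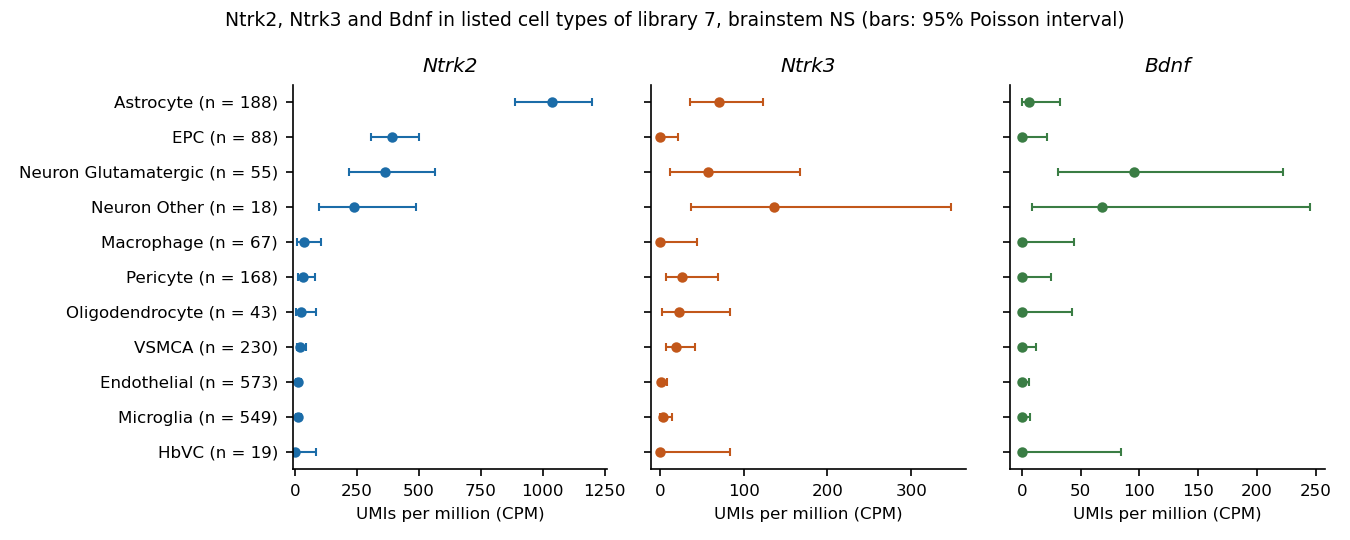
Level of each gene in CPM (horizontal axis) in the listed cell types of library 7, with 95% Poisson intervals and the number of cells. Astrocytes lie at 1035 CPM of Ntrk2, apart from all other types of more than 1 cell. Bdnf UMIs lie in the neuron rows and in 1 astrocyte.

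To follow the genes beyond library 7, all 29571 cells were clustered without Ntrk2, Ntrk3 and Bdnf, and the 29 clusters were named from marker lists. Clusters draw on different libraries, and their levels are therefore compared with counting error alone. Cluster 9 (1550 astrocyte-like cells, led by Agt, Itih3, Slc6a11 and Gfap and mainly from libraries 4 to 9) had 1203 CPM of Ntrk2 [1141 to 1267]. Cluster 15 (643 tanycyte-like cells led by Col25a1 and Rax, of which 97.5% were from libraries 4 to 6) had 834 CPM [761 to 911]. Cluster 2 (3223 astrocyte-like cells led by Htra1 and Pantr1, of which 96.8% were from libraries 1 to 3) had 703 CPM [664 to 744]. These 3 intervals are apart, but the order of clusters 15 and 2 depended on the processing: in cells of at least 1000 UMIs they had 705 and 657 CPM, and at a coarser clustering (resolution 0.5) the clusters matched to them had 437 and 704 CPM. In cluster 15 the astrocyte markers summed to 3163 CPM, and 79.3% of the cells had a UMI of Slc1a2, Slc1a3, Aldoc or Gja1. The 133 cells of cluster 15 without such a UMI had 411 CPM of Ntrk2. The part of astrocyte RNA in the level of cluster 15 was not tested.

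EPC-like cluster 7 had 503 CPM of Ntrk2 in 1621 cells [477 to 529]. Neuron-like cluster 4 (led by Nrgn, Slc17a7 and Camk2a, with 98.4% of its 2434 cells from libraries 1 to 3) had 283 CPM [266 to 300]. Neuron-like cluster 10 (1367 cells led by Gad1, Gad2 and other genes of inhibitory and excitatory neurons) had 277 CPM [249 to 307]. The levels in the 2 neuron-like clusters do not differ beyond counting error. Pituitary stem cell-like cluster 18 had 208 CPM and choroid plexus-like cluster 27 had 199 CPM, and these overlap as well. Over the 8 endothelial-, pericyte-, VSMCA-, microglia- and macrophage-like clusters other than 21 and 22, Ntrk2 ran from 27.0 to 72.9 CPM with a median of 41.5 CPM.

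Clusters 21 and 22 went against that pattern. Microglia-like cluster 21 had 541 CPM of Ntrk2 in 262 cells and endothelial-like cluster 22 had 379 CPM in 252 cells. The 8 astrocyte markers summed to 6182 CPM in cluster 21 and 6272 CPM in cluster 22, against 431 CPM in microglia-like cluster 8 and 357 CPM in endothelial-like cluster 3, and 93.5% and 87.7% of the cells had a UMI of Slc1a2, Slc1a3, Aldoc or Gja1. Their median Scrublet scores were 0.142 and 0.154, against 0.0291 in cluster 8 and 0.0296 in cluster 3. Without the 5% of cells of each library with the highest scores, Ntrk2 was 548 CPM in cluster 21 and 319 CPM in cluster 22, within the intervals of the full clusters. Without the cells that had a UMI of those 4 genes, Ntrk2 was 83.8 CPM in the 31 cells left of cluster 22 and 468 CPM in the 17 cells left of cluster 21. Cells so few and shallow hold few UMIs, so no contrast between the 2 clusters is read from these last levels. The part of astrocyte RNA in the Ntrk2 levels of clusters 21 and 22 was not tested further.

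Across all libraries, astrocyte-like cells held 35.5% of the Ntrk2 UMIs, EPC-like cells 20.4%, neuron-like cells 19.8% and tanycyte-like cells 6.62%. The makeup behind a library's level differed. In library 3, neuron-like cells held 56.8% of the Ntrk2 UMIs and astrocyte-like cells 37.3%. In library 7, astrocyte-like cells held 47.0%, EPC-like cells 28.7% and neuron-like cells 7.60%. In library 9, EPC-like cells held 42.1%, more than the 31.1% of astrocyte-like cells. In library 4, tanycyte-like cells held 27.3%.

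Ntrk3 was highest in neurons, and it differed between the 2 astrocyte-like clusters. It had 230 CPM in neuron-like cluster 4 [215 to 246] and 163 CPM in cluster 10 [142 to 186], and 70.4% of its 1559 UMIs lay in neuron-like cells. That share was 87.8% to 92.6% in libraries 1 to 3. It was 22.5% in library 7 and 23.7% in library 9, where astrocyte-like cells held 28.1% and 25.8%, and 41.0% in library 4 and 34.8% in library 6, where unnamed clusters held 31.4% and 33.7%. In library 8 neuron-like cells held 38.3% and astrocyte-like cells 26.2%. In library 5 neuron-like cells held 54.3% and unnamed clusters 16.3%. Astrocyte-like cluster 9 had 79.8 CPM [64.5 to 97.7] from 94 UMIs, whereas astrocyte-like cluster 2 had 19.5 CPM [13.4 to 27.4] from 33. The difference between these clusters is also one of libraries, since they share few. Fibroblast-like cluster 12 had 44.5 CPM and VSMCA-like cluster 6 had 41.1 CPM [32.1 to 51.9], against 3.01 CPM in endothelial-like cluster 3 and 4.29 and 6.43 CPM in the pericyte-like clusters 16 and 14. EPC-like cluster 7 had 7.74 CPM.

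Bdnf lay chiefly in neurons in libraries 1 to 3 and, on few UMIs, in libraries 7 to 9. Neuron-like cluster 4 had 98.4 CPM [88.7 to 109] and cluster 10 had 64.0 CPM [51.1 to 79.1]. In libraries 1, 2 and 3, neuron-like cells held 95.2%, 93.7% and 95.4% of the Bdnf UMIs. In libraries 7, 8 and 9 they held 84.6%, 76.5% and 58.3% of 13, 17 and 12 UMIs. In astrocyte-like cluster 9 there were 2 UMIs in 1550 cells, and in cluster 2 there were 14 in 3223 cells, or 8.28 CPM. VSMCA-like cluster 6 had 0 UMIs in 1810 cells and microglia-like cluster 8 had 0 in 1595, which allow up to 0.166% and 0.188% of cells with a UMI. At this depth a cell that expresses Bdnf usually shows no UMI, so these limits do not bound the share of cells expressing it.

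In libraries 4, 5 and 6 the picture differed. Neuron-like cells held 28.3%, 61.2% and 14.8% of the Bdnf UMIs there, and cells of unnamed clusters 60.9%, 34.7% and 70.5%. Most of these were in cluster 1, led by Gh and Dlk1, with 59 UMIs and 12.7 CPM [9.68 to 16.4], and in cluster 5, led by Pomc and Prl, with 28 UMIs and 14.7 CPM [9.78 to 21.3]. Against the total without hormone and the other genes, Bdnf was 34.6 CPM in cluster 1, 22.1 CPM in cluster 5 and 73.0 CPM in neuron-like cluster 10, so that the order of clusters 1 and 5 turned. The 12 neuron markers, of which Snap25 is also a gene of hormone-secreting cells, summed to 357 CPM in cluster 1 and 739 CPM in cluster 5, against 8029 CPM in neuron-like cluster 10. Within libraries 4 to 6 there were 35.9 Bdnf UMIs per 1000 neuron marker UMIs in cluster 1, 19.9 in cluster 5 and 8.49 in cluster 10. The ratio differed among these clusters, and the source of the Bdnf UMIs in clusters 1 and 5 was not tested.

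**Figure D4:**
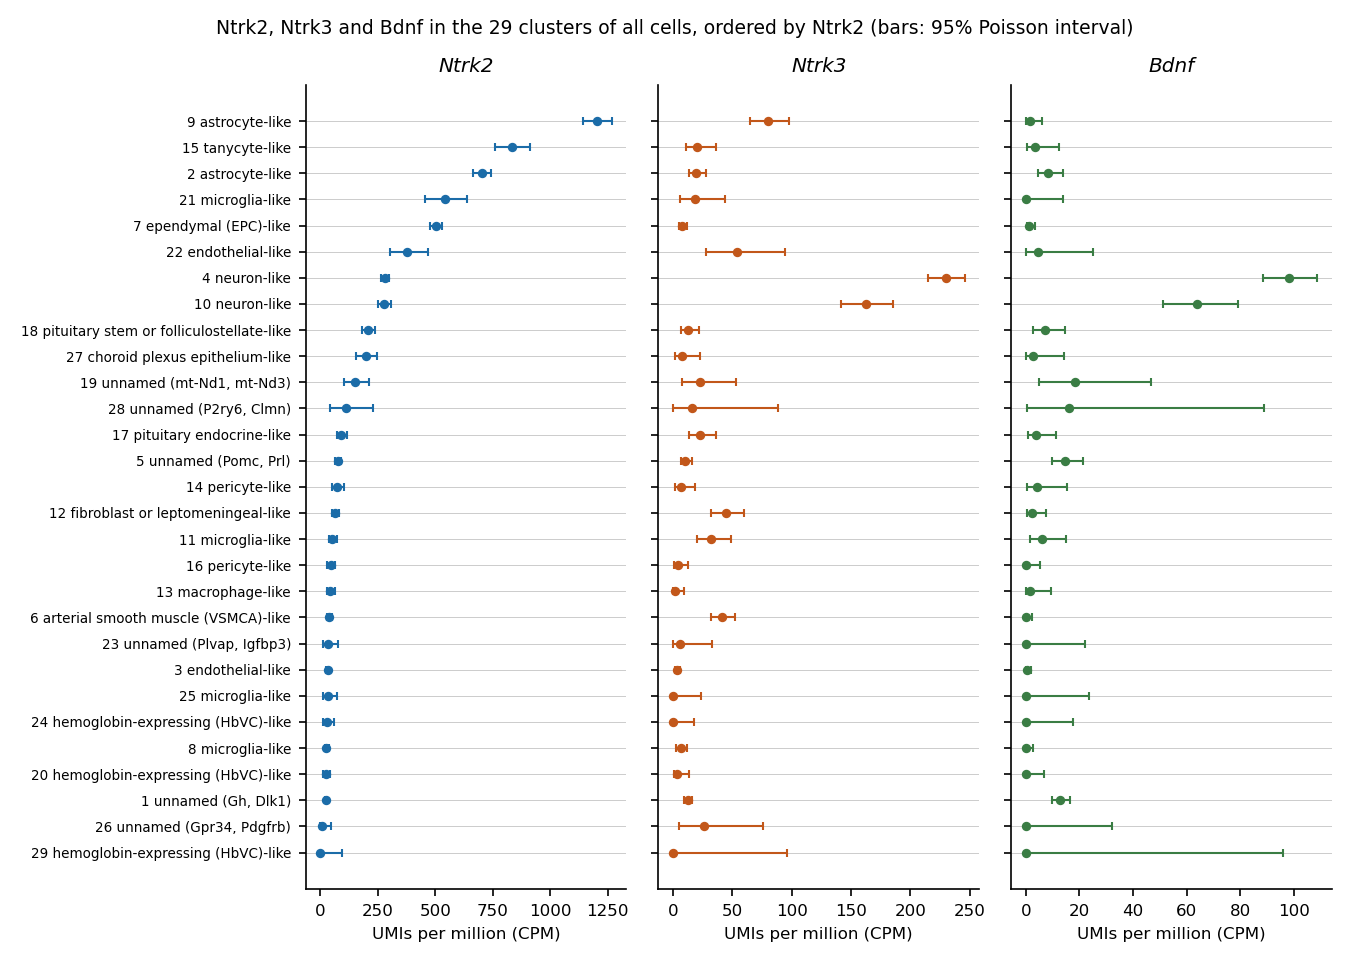
Level of each gene in CPM (horizontal axis) in the 29 clusters of all cells, ordered by Ntrk2, with 95% Poisson intervals. Ntrk2 is spread over astrocyte-, tanycyte-, EPC- and neuron-like clusters, while Ntrk3 and Bdnf peak in the neuron-like clusters 4 and 10.

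Within cluster 10, cells with a glutamate transporter UMI and cells with a GABA gene UMI differed in Bdnf. In cluster 10, 302 cells had a UMI of a vesicular glutamate transporter gene (Slc17a6 or Slc17a7) and none of the GABA genes Gad1, Gad2 and Slc32a1, and 394 cells had the reverse. Bdnf was at 99.4 CPM [68.9 to 139] from 34 UMIs in the first and at 9.28 CPM [2.53 to 23.8] from 4 UMIs in the second. The largest group, 663 cells with a UMI of neither kind, had 83.2 CPM [60.7 to 111] from 45 UMIs, which overlaps with the glutamate cells. Each of libraries 4 to 9 had at least 20 cells of both kinds, and in all 6 Bdnf was higher in the glutamate cells. Their Bdnf counts in that order of libraries were 4, 9, 3, 4, 8 and 5 UMIs, against 0, 0, 1, 2, 0 and 0 in the GABA cells, where a count of 0 allows 27.2 to 65.3 CPM. Not every library alone thus holds enough UMIs to part the cells beyond counting error. In library 5 the glutamate cells had 162 CPM and the GABA cells 0, where a count of 0 allows 48.4 CPM. This split was made after the values by cluster had been seen.

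For the receptors no such difference was seen beyond counting error. Ntrk2 was at 275 CPM [222 to 336] in the glutamate cells of cluster 10 and at 329 CPM [277 to 388] in the GABA cells, and Ntrk3 at 175 CPM [134 to 226] and 158 CPM [123 to 200]. In both cases the intervals overlap. By library, Ntrk2 was higher in the GABA cells in libraries 4, 5, 6, 8 and 9, with 479 CPM from 22 UMIs against 178 CPM from 11 in library 9. In library 7 it was higher in the glutamate cells, with 461 CPM from 16 UMIs against 212 CPM from 10. In cluster 4, where 1880 cells had a glutamate transporter UMI alone, the levels of those cells were 292 CPM of Ntrk2, 230 CPM of Ntrk3 and 98.1 CPM of Bdnf, and the 530 cells with a UMI of neither kind had 105 CPM of Bdnf.

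The levels were next compared among libraries within 1 cluster, which reduces the differences in makeup and does not remove them, since a cluster can still hold kinds of cells in shares that differ by library. Ntrk2 in neuron-like cluster 4 was nearly level, with 285 CPM in library 1, 286 CPM in library 2 and 284 CPM in library 3. Ntrk3 there was at 252, 258 and 213 CPM, and these intervals overlap. Bdnf there was at 91.5 CPM [69.9 to 118] from 60 UMIs in library 1, 144 CPM [120 to 170] from 131 UMIs in library 2 and 83.1 CPM [71.6 to 95.9] from 186 UMIs in library 3. Library 2 lay above the other two beyond counting error, narrowly so against library 1. In cells of at least 1000 UMIs alone, the 3 levels were 96.3 CPM [71.2 to 127], 150 CPM [121 to 182] and 85.6 CPM [73.5 to 99.2]. The intervals of libraries 1 and 2 then overlap, on 49 and 97 UMIs, while their levels stayed near those of all cells. The libraries have no labels of their own here, and 1 library each leaves variation between pools of mice unmeasured.

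Ntrk2 in astrocyte-like cluster 2 was at 635 CPM [563 to 713] in library 1, 813 CPM [736 to 897] in library 2 and 629 CPM [571 to 692] in library 3. Library 2 was again above the others beyond counting error, but in cells of at least 1000 UMIs the levels were 598, 606 and 681 CPM from 18, 14 and 123 cells, with overlapping intervals. In astrocyte-like cluster 9 it was at 1508 CPM in library 4, 1567 CPM in library 5, 989 CPM [872 to 1116] in library 7, 1440 CPM [1314 to 1574] in library 8 and 998 CPM [899 to 1105] in library 9. Libraries 7 and 9 were below the other 3 beyond counting error. Depth moved with this order, as the median UMIs per cell of the cluster were 542, 389, 749, 654 and 870 in the same libraries. In cells of at least 1000 UMIs the levels were 866 CPM [697 to 1063] in library 7, 1155 CPM [911 to 1443] in library 8 and 908 CPM [768 to 1067] in library 9, and their intervals overlap, while libraries 4 and 5 kept only 8 and 5 such cells, with 438 and 877 CPM. The part of depth in the differences was not tested further.

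In EPC-like cluster 7, Ntrk2 was at 660 CPM in library 4, 553 CPM in library 5, 515 CPM in library 6, 385 CPM [328 to 448] in library 7, 600 CPM [538 to 666] in library 8 and 457 CPM [419 to 498] in library 9. Library 7 was low in this cluster as well, overlapping with library 9 and not with library 8. In tanycyte-like cluster 15 it was at 862, 897 and 780 CPM in libraries 4, 5 and 6, which overlap. In neuron-like cluster 10 Ntrk2 ran from 219 to 300 CPM over libraries 4 to 9 with overlapping intervals, Ntrk3 from 124 to 197 CPM and Bdnf from 43.9 to 114 CPM. Ntrk3 in cluster 9 ran from 67.1 CPM in library 9 to 94.7 CPM in library 7, again with overlapping intervals.

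**Figure D5:**
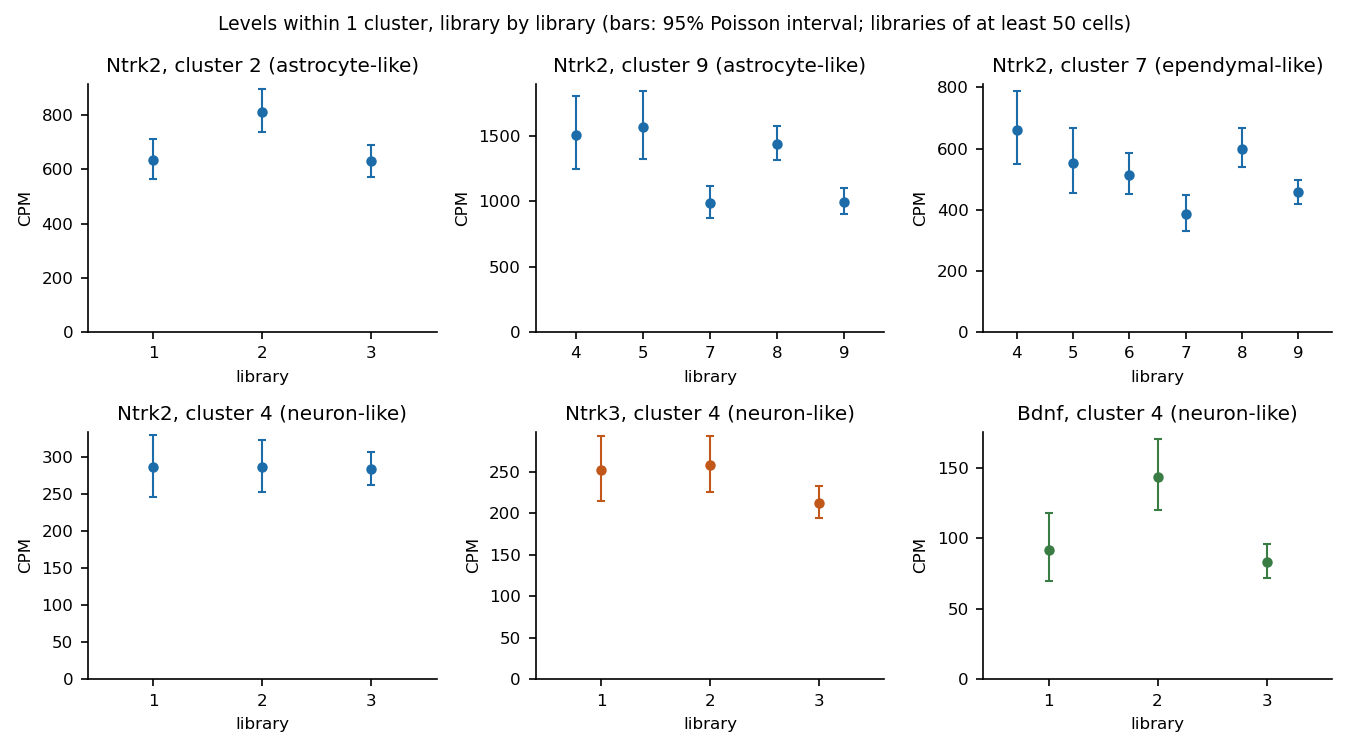
Level in CPM (vertical axis) by library within single clusters, with 95% Poisson intervals, for libraries with at least 50 cells of the cluster. Ntrk2 in cluster 4 is level at 284 to 286 CPM, while Bdnf in the same cells is highest in library 2 at 144 CPM.

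UMIs of receptor and ligand were found in the same cells of neuron-like cluster 4. In cluster 4, 759 of 2434 cells had a UMI of Ntrk2, 644 of Ntrk3 and 284 of Bdnf. Of the 284 cells with Bdnf, 134 also had Ntrk2, or 47.2%, where 31.2% of all cells of the cluster did, and 114 also had Ntrk3, or 40.1%, where 26.5% of all cells did. In neuron-like cluster 10 the shares lay nearer to those of all cells, with Ntrk2 in 28.8% of the Bdnf cells against 21.7% and Ntrk3 in 13.6% against 12.1%. In the listed neurons 2 of the 6 cells with Bdnf had Ntrk2 and 0 had Ntrk3. Deeper cells are more likely to show any gene, so these shares are a description and not a sign of linked expression. In astrocyte-like cluster 9, 59 of the 91 cells with Ntrk3 also had Ntrk2, or 64.8%, where 51.6% of all cells did, whereas in astrocyte-like cluster 2 this was 8 of 32 cells, or 25.0%, where 29.2% of all cells did.

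The other genes of the pathway came from a list of 36 genes (ligands, receptors, co-receptors, processing enzymes and adaptors), of which 35 are in the table. Among the ligands, Ntf3, which encodes neurotrophin-3, the ligand of TrkC, had 139 UMIs in all cells, of which 93 were in VSMCA-like cluster 6 at 53.9 CPM, and 12 were in the 184 cells of the unnamed cluster 23, led by Plvap, at 71.5 CPM [36.9 to 125]. Ntf5, which encodes neurotrophin-4, the other TrkB ligand, had 34 UMIs, 18 of them in pituitary endocrine-like cluster 17. Ngfr, the receptor that all neurotrophins share, had 23 UMIs, too few to rank clusters.

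Among the sortilin family, which sorts and binds neurotrophins and their precursors, Sort1 had 301 CPM in neuron-like cluster 4 and Sorcs3 had 81.1 CPM there and 73.0 CPM in cluster 10. Sorcs2, a co-receptor for the BDNF precursor, was highest in the same cluster as Ntrk2, with 80.7 CPM in astrocyte-like cluster 9 [65.3 to 98.6] and 34.9 CPM in cluster 2. Lingo1 and Rtn4r, which act with Ngfr in a receptor complex for myelin proteins, had 562 and 175 CPM in cluster 4, and 86.9% and 89.0% of their UMIs lay there. Kidins220, a scaffold of Trk signalling, had 120 CPM in neuron-like cluster 10 and 112 CPM in cluster 9. Plat, the tissue plasminogen activator that helps to mature BDNF, had 300.0 CPM in pericyte-like cluster 14 and 239 CPM in endothelial-like cluster 3. Of the adaptors, Grb2 had 130 CPM in cluster 4 and Frs3 had 55.7 CPM in cluster 10, while Shc3 had 13 UMIs in all.

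In the listed cells of library 7, 8 of the 35 list genes reached 50 CPM in astrocytes or in the other cells, and Ntrk2 and Sorcs2 of these were at least 4 times as high in astrocytes, beside 10.2% of all genes tested. The median log2 ratio was 1.05 over the 8 and -0.20 over all genes tested. In neurons 13 list genes reached 50 CPM and 7 passed the line: Bdnf, Ntrk3, Sorcs1, Sorcs3, Lingo1, Bex1 and Maged1, beside 19.5% of all genes, with a median log2 ratio of 2.09 beside -0.05 over all genes. Of these, Maged1 had 51 UMIs in neurons and the others few. Lingo1 and Bex1 had 9 each, Bdnf, Ntrk3 and Sorcs1 had 7 each and Sorcs3 had 5. Sorcs2 in astrocytes rests on 10 UMIs. Without the 5% of cells with the highest Scrublet scores, Ntrk3 had 32.8 CPM in neurons, under the minimum of 50 CPM. In EPC 4 reached it and 0 passed, beside 13.4% of all genes. A list gene could reach 50 CPM through its own type alone, which favours high ratios, so these counts describe the genes and support nothing further. Of the list genes that reached 50 CPM, 0 were at least 4 times lower in any of the 3, where 9.83%, 9.08% and 8.74% of all genes tested were lower in astrocytes, EPC and neurons, so that with so few list genes a count of 0 is near the background.

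Genes with the pattern most like that of Ntrk2 over the 8 listed types of at least 50 cells were Shisa4, C130071C03Rik, Sfxn5, Oplah, Fam184a, Sqle, Clu and Sorcs2, with Pearson's r of log2(CPM + 10) from 0.99 to 0.96. Sfxn5, for example, was at 441 CPM in astrocytes, 200 CPM in EPC, 210 CPM in glutamatergic neurons and 23.7 CPM in microglia. Those of Ntrk3 were Wfs1, Cyp51, Car11, Cdh11, Aatk, Fam20c, Slc6a9 and Fdft1 (r from 0.96 to 0.92), on 34 UMIs of Ntrk3. Over the 29 clusters, the genes most like Ntrk2 were Nim1k, Pfkm, Tmem47, Slc27a1, Mt3, Scd2, Abat and Tulp3 (0.91 to 0.88), none of them among the 8 found over the listed types. Those most like Ntrk3 were Adgrl1, Dpp6, Chl1, Nlgn2, Tuba4a, B4galt2, Ptprs and P4htm (0.88 to 0.84), and those most like Bdnf were Cacna1b, Atcay, Dlg2, Fcho1, Lrrc7, Rims3, Tubb4a and Rap1gap2 (0.95 to 0.93). The points share libraries and depth and carry no test. With the cells of libraries 4 to 6 left out, 3 of the 8 genes for Ntrk2, 4 of the 8 for Ntrk3 and 0 of the 8 for Bdnf stayed in the list.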

How the data were processed

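The values are whole-number UMI counts without normalization, deposited by the authors as a single table of genes by cells and made, per the submitters' processing notes, with Cell Ranger 2.2.0 and R 3.5.3 on GRCm38 from 10x Chromium version 2 libraries (3′ ends). The annotation release is not given in the sources used here. All 29571 columns were cells with a library code, and 0 columns of other samples were left out. Genes and lists were chosen with earlier results of these data known. Total counts per library ran from 1522766 to 5488950 UMIs. A level is the sum of a gene's counts over the sum of all counts of the same cells, times 1000000. Library 7 was matched by barcode, and types came from the study's list, held here in part.

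Cells were scaled to 10000, log-transformed and clustered without the 3 genes (2000 variable genes, 13 principal components, 20 neighbours, Leiden resolution 1, fixed seed, leidenalg 0.10.2). A cluster was named "-like" where at least 3 listed markers were 2 times as high as elsewhere (with 10 CPM added) and detected in no fewer than 10% of the cluster's cells, with most markers among its 10 leading genes deciding between names, and 6 clusters stayed unnamed. Scrublet (scanpy 1.11.5) called 140 cells, or 0.473%, too few to be relied on, so all cells were kept. Shares at like depth used cells thinned at random to 500 UMIs, leaving out shallower cells. Beside a zero stands the level or share of 3 counts. Genes at least 4 times as high in a type were counted among those with at least 50 CPM. The named genes were the 3 genes, the pathway list and, per gene, the 8 with the highest correlation, over types only where it had at least 20 UMIs. Bex3 of the list was not analysed here, and some genes of the list are not reported here. The ratio, intervals and clustering were tested on simulated data. Alternatives were another total, cells of at least 1000 UMIs, the mean over cells, the 5% of cells with the highest Scrublet scores left out, clusters in place of listed types, resolution 0.5, free RNA subtracted, 1 CPM added, a 10 CPM minimum and thinning to 1000 UMIs. Another 2, leaving out libraries 4 to 6 and cells with astrocyte UMIs, were chosen after seeing the data. Comparisons of sleep groups were not made, as 8 libraries are unassigned.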

Additional observations from a re-analysis of the deposited data

How the results depend on the processing

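No paired analysis was possible because each group is 1 library and no test was made. Of 39 values under alternatives for the 8 main levels and ratios, 33 stayed within the counting interval, and 3 of these, with free RNA subtracted, could not differ. Ntrk2 in listed astrocytes was 839 CPM in cells of at least 1000 UMIs. In cluster 2 it was 657 CPM in such cells and 769 CPM with the total without mitochondrial, hemoglobin and hormone genes. In cluster 9 it was 925 CPM in such cells, 1402 CPM with that total and 1289 CPM as the mean over cells. The cause of these shifts was not tested, except that a smaller total raises every level. At resolution 0.5 the cluster matched to tanycyte-like cluster 15 had 437 CPM of Ntrk2. Without the highest Scrublet scores, Ntrk3 in listed neurons was 32.8 CPM in place of 85.5 CPM, and it was 136 CPM in the neuron-like clusters of library 7. The Bdnf ratio of 59.2 with 1 CPM added comes with 1 UMI in the other cells. With a minimum of 10 CPM the shares of genes at least 4 times as high were 4.03% in astrocytes, 5.79% in EPC and 8.95% in neurons. Thinned to 1000 UMIs, 51.9% of astrocytes kept a UMI of Ntrk2, 31.5% of EPC, 20.8% of neurons and 1.78% of microglia. The free RNA to subtract was 0, the level in HbVC, where 19 cells allow up to 68.2 CPM, so this alternative tests nothing. For levels by library, 17 of 36 alternatives for Ntrk2, 26 for Ntrk3 and 26 for Bdnf stayed within the interval. In cells of at least 1000 UMIs, Ntrk3 was 230 and 224 CPM and Bdnf 85.3 and 138 CPM in libraries 1 and 2, Ntrk2 and Ntrk3 were 143 and 28.2 CPM in library 5, and Bdnf was 1.68 CPM in library 7. As the mean over cells, Ntrk3 was 72.4 and 87.0 CPM in libraries 1 and 2, and Bdnf was 21.2, 42.3, 33.5, 25.8 and 3.04 CPM in libraries 1, 2, 3, 5 and 8. The total without hormone and the other genes raised the levels up to 1.68 times, most in library 6. The shallow cells limit what can be said of Bdnf, which had 598 UMIs in all.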

Other observations

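Some enzymes that mature neurotrophins were found in clusters of libraries 4 to 6. Pcsk6, a proprotein convertase, had 163 of its 334 UMIs in cluster 1, led by Gh, at 35.1 CPM [29.9 to 40.9]. Furin, the convertase best known for cutting growth factor precursors, had 46.1 CPM [33.7 to 61.5] in pituitary stem cell-like cluster 18, which does not differ beyond counting error from the 42.9 CPM of tanycyte-like cluster 15 and the 40.6 CPM of endothelial-like cluster 22. By whole library, Furin was at 21.2, 20.7 and 16.8 CPM in libraries 4, 5 and 6. In the other libraries it ran from 13.8 CPM in library 1 to 29.5 CPM in library 7. In cluster 18, Ptpn11, a phosphatase that relays Trk signals, had 83.2 CPM [66.2 to 103]. Endothelial-like cluster 22, with 81.3 CPM of Ptpn11, and pericyte-like cluster 16, with 72.9 CPM, lay within this interval. Magel2, which belongs to the same gene family as the neurotrophin receptor partner Maged1, had 64 of its 82 UMIs in neuron-like cluster 10, at 48.2 CPM [37.1 to 61.5]. These are values without a test or an explanation.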
